A study of Rattus norvegicus with 8 samples.

Results

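Cytosolic ribosomal protein genes were taken from the rat retina arrays by their symbols: Rpl, Rplp, Rps and Rpsa names, with the Rps6ka and Rps6kb kinases left out. The rule found 85 of 26334 genes on the array, 53 of the large and 32 of the small subunit, with 171 spots and 153 probes. Of these, 76 genes (132 probes) had spots at 2 times background or more in every channel and with no flag for a non-uniform feature or background or for a feature outlier (outlier flags below), and were tested. Flags for background population outliers were not used; of the 145 member spots tested, 85 (53 genes) had none. The animals were 8-week-old female Lister Hooded rats. In the ONC group the right optic nerve was crushed 3 mm behind the eye's optic disc, with the crush held for 10 s, and the CTR group was sham operated, both under xylazine at 10 mg/kg and ketamine at 60 mg/kg. Retinas were collected 2 weeks after surgery, and the comparison asked how retinal transcripts differ after optic nerve injury. There were 4 samples per group, and each sample was 1 channel of a 2-colour array.

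Ribosomal proteins assemble with ribosomal RNA into a large subunit, which joins amino acids, and a small subunit, which reads the mRNA. Their mRNAs begin with a run of pyrimidines, the terminal oligopyrimidine (TOP) tract, through which the TOR kinase and the protein Larp1 control their translation as a group. Most cells make them abundantly and in balanced amounts, and in retinal neurons protein synthesis is tied to TOR signalling, which supports axon regrowth after nerve injury. Several members also act outside the ribosome, and a few have paralogs that are used in testis or muscle.

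The labels placed every CTR sample in Cy5 and every ONC sample in Cy3, and put equal numbers on the same array, so group and dye cannot be told apart. In the methods of the study there is another layout, with both channels of an array from the same group. Markers of retinal ganglion cells, which degenerate after crush, went against the labels except in CTR2 and ONC4. All 8 of the 8 tested markers (of 10 on the list) were above their own 8-channel mean in the channels labelled CTR2, ONC1, ONC2 and ONC3, and none was in CTR1, CTR3, CTR4 or ONC4. Their mean log2 level relative to that 8-channel mean was -1.64, 1.23, -1.27 and -1.09 in CTR1 to CTR4, against 1.31, 1.34, 1.47 and -1.35 for ONC1 to ONC4. The median log2 fold change of these markers was 1.44 in favour of ONC. The text of the study gives 7 of these 8 markers the opposite direction, and none for Rbpms. Pou4f2, a transcription factor of these cells, had the largest difference, 2.07 ± 0.92 (SE), and was not called (limma adjusted p = 0.274). Every direction below therefore belongs to a channel as labelled. The main results are also given without CTR2 and ONC4, and over CTR2, CTR4, ONC1 and ONC3, whose dye both sources give alike. Neither choice resolves the labels. The first leaves only channels whose markers went against their labels, and of the second only CTR2 went with its label. In bulk retina, fewer cells of a type and less RNA per cell cannot be told apart.

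The ribosomal protein spots were far above background. Their median foreground was between 708 and 1627 times the local background in the 8 channels, 98.2% or more of the 171 spots were well above background in each channel, and none was saturated. The median foreground over all spots lay between 218 (ONC4) and 626 (CTR2) intensity units. Levels are log2 background-subtracted intensities after loess normalization, relative to the channel's median, so that 1 unit is a doubling. They compare channels for 1 gene and do not rank genes. The number of arrays limits the precision.

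No ribosomal protein gene was called between channels labelled ONC and CTR (0 of 76; limma, Benjamini-Hochberg adjusted p under 0.05), beside 81 of 16307 genes tested, or 0.497%. At an unadjusted p under 0.05 there were 14 members (18.4%), 4 higher and 10 lower in ONC, beside 18.6% of all genes. The median log2 fold change was -0.01, as over all genes (-0.01), with 34 members higher and 42 lower. Member fold changes ran from -0.53 to 0.69, and 58 of 76 lay within 0.25 of 0, a share of 76.3% beside 75.1% of all genes. The SE of a member's fold change had a median of 0.10. In 9 members (2 higher, 7 lower) the 4 ONC channels did not overlap with the 4 CTR channels, beside 12.7% of all genes. Large subunit members had a median of -0.04 over 45 genes and small subunit members -0.01 over 31. By these counts and by their median, all without the array as a block, the members stood close to the whole array. In sign by array they did not: 44 of 76 had the same sign on all 4 arrays, beside 6424 of 16307 genes. Without CTR2 and ONC4, 1 of 76 was called (Rplp0, lower) beside 415 of all genes, at a median of -0.07 for members and -0.06 for all genes, and over the 4 channels with undisputed dye none was called, neither among members nor among all genes, at a median of 0.01 for both. The direction of their median depended on the scaling, since it was 0.04 with the scanner software's own processed signals and -0.29 with each channel scaled to its median and no loess, where the median of all genes was 0.07.

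**Figure D1:**
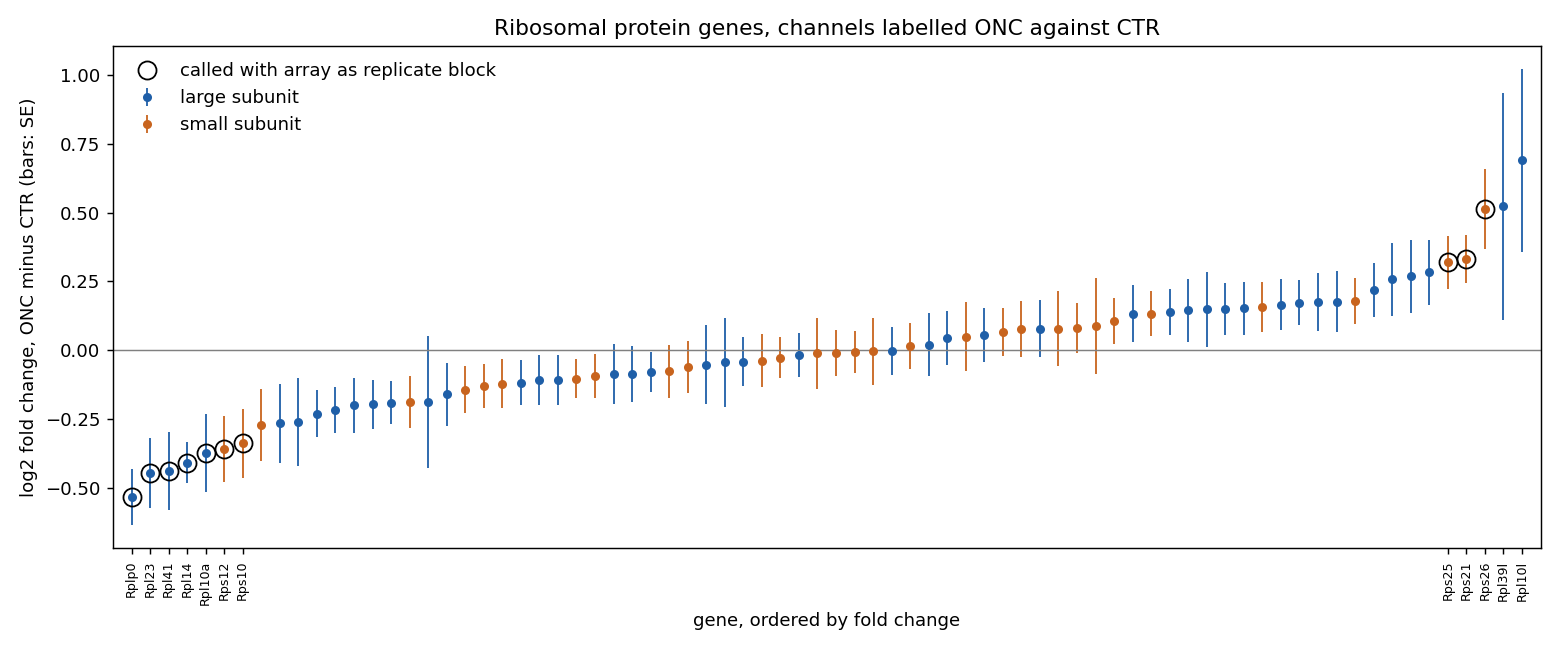
Log2 fold change, channels labelled ONC minus CTR, with its SE, for the 76 tested ribosomal protein genes (4 channels per label), coloured by subunit; circles mark the 10 members called with the array as a replicate block. The values run from -0.53 (Rplp0) to 0.69 (Rpl10l), with wide errors for Rpl10l and Rpl39l; only the circled members and these 2 are named on the axis.

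Channels with the same number shared an array, and with the array as a replicate block 10 of 76 members were called, 3 higher and 7 lower in ONC, beside 7.69% of all genes (1254 of 16307) in either direction and 4.61% lower in ONC. In all 10 the sign was the same on the 4 arrays, which selection by the blocked fit favours, so it is no separate evidence. Lower were Rplp0, Rpl23, Rpl41, Rpl14, Rpl10a, Rps12 and Rps10, and higher were Rps26, Rps21 and Rps25. The first 5 belong to the large subunit, and all 3 higher members to the small subunit. The dye of the label cannot be told apart from the group in any of these calls. Mean ganglion cell marker levels were alike in both channels of array 2 (1.23 and 1.34) and of array 4 (-1.09 and -1.35).

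Promoter sequences of the called members are shown because these genes differed between the labels in the blocked fit. They run from 80 bases before to 20 bases after the RefSeq transcript start (build GRCr8), 5′ to 3′ on the gene's strand. Capitals mark a C followed by 4 or more pyrimidines beginning within 10 bases of the start, the ETS motif CCGGAAG or the YY1 motif AAGATGG on either strand, and TATAA on the sense strand. Rps25 had no entry in the promoter table.
Rplp0: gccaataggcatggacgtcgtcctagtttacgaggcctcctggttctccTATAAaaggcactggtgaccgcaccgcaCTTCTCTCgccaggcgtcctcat
Rpl14: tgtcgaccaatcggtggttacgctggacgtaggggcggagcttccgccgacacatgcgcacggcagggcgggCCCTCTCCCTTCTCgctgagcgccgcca
Rpl10a: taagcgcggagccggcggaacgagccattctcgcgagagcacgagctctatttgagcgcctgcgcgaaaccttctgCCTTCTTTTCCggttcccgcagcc
Rpl23: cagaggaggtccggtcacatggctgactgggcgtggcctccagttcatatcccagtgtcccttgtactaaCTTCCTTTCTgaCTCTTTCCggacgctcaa
Rpl41: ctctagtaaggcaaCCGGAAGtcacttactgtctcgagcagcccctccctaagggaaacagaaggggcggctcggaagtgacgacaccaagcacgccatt
Rps10: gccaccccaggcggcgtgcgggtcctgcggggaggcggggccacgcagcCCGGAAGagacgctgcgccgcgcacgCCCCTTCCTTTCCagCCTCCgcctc
Rps12: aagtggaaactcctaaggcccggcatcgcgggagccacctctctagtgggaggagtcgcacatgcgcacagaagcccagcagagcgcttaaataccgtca
Rps26: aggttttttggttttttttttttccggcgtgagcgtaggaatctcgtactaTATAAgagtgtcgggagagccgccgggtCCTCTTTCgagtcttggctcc
Rps21: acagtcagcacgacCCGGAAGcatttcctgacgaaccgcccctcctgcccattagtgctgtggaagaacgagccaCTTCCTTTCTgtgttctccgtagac
The windows lie at chr12:46718371-46718470 on the minus strand, chr8:129163540-129163639 on the plus strand, chr20:6390453-6390552 on the plus strand, chr10:83272165-83272264 on the minus strand, chr7:1563478-1563577 on the minus strand, chr20:5700725-5700824 on the minus strand, chr1:23499995-23500094 on the plus strand, chr7:1643385-1643484 on the minus strand and chr3:187723958-187724057 on the plus strand.

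A marked pyrimidine run stands in 5 of the 7 windows of lower members and in both of the higher ones, so the run did not separate the directions. Rps12 and Rpl41 have none there, and Rpl41, Rps10 and Rps21 hold CCGGAAG. Over whole promoters (250 bases before to 50 after the start), 67 of the 85 genes matched, with 68 promoters. A C at the start followed by 4 pyrimidines was found in 24 of the 68 (35.3%), beside 2.63% of 33469 rat promoters, and the looser run marked above in 72.1%, beside 28.9%. CCGGAAG was present in 30.9% of member promoters and in 8.75% of all, AAGATGG in 16.2% and 7.01%, TATAA in 23.5% and 18.4%, and the NRF1 motif GCGCATGC, on either strand, in 4.41% and 2.47%. These are matches of letters, and no binding was measured.

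Rplp0 is the base of the ribosomal stalk, which carries Rplp1 and Rplp2 and recruits the translation GTPases, and it is often a reference gene in quantitative PCR. Its log2 level was 7.14, 7.02, 7.27 and 7.31 in CTR1 to CTR4, against 6.72, 6.51, 6.56 and 6.81 for ONC1 to ONC4. Every ONC channel was below every CTR channel. The difference was -0.53 ± 0.10 (SE, 1.45-fold), with a limma adjusted p of 0.058, and of 0.029 with the array as a replicate block. Both probes gave it, at -0.56 and -0.51. The difference was -0.64 without CTR2 and ONC4, where limma called Rplp0 (adjusted p = 0.037), and -0.52 over the 4 channels with undisputed dye (adjusted p = 0.39). It was -0.97 with median scaling and no loess, and -0.30 with the scanner software's processed signals (adjusted p = 0.209).

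Rpl14, a large subunit protein, had the tightest channels of the 10. Its level was 4.19, 4.30, 4.34 and 4.27 in CTR1 to CTR4, against 3.83, 3.90, 3.83 and 3.91 for ONC1 to ONC4, without overlap. The difference was -0.41 ± 0.07 (SE; limma adjusted p = 0.055, and 0.033 with the replicate block), the smallest adjusted p among members without the block. It was -0.42 without CTR2 and ONC4, -0.46 over the 4 channels with undisputed dye, and -0.26 with processed signals (adjusted p = 0.103). Keeping spots with an outlier flag brought in a further spot and raised the adjusted p to 0.425, at a difference of -0.35.

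Rpl23, a large subunit protein that also binds Mdm2, had levels of 6.60, 6.53, 6.86 and 6.64 in CTR1 to CTR4, against 6.36, 6.07, 6.44 and 5.97 for ONC1 to ONC4. The ONC channels lay below the CTR channels, with ONC4 lowest. The difference was -0.45 ± 0.13 (SE; limma adjusted p = 0.119, and 0.039 with the replicate block), and it was -0.41 without CTR2 and ONC4, and -0.18 over the 4 channels with undisputed dye. Rpl41 is a very small basic protein at the subunit interface. Its levels were 7.94, 7.59, 7.90 and 7.74 in CTR, against 7.40, 6.97, 7.48 and 7.56 for ONC, in the order of the replicates. The groups did not overlap, but ONC4 came close to CTR2. The difference was -0.44 ± 0.14 (adjusted p = 0.151, and 0.043 with the replicate block), -0.58 without CTR2 and ONC4, and -0.22 over the 4 channels with undisputed dye. Rpl10a forms the stalk beside the exit of transfer RNA. Channels CTR1 to CTR4 gave 5.99, 5.89, 6.03 and 5.60, and ONC1 to ONC4 gave 5.61, 5.66, 5.60 and 5.15. The groups overlapped, as CTR4 lay below ONC1 and ONC2. Of its 2 probes 1 was low on array 4 (5.26 and 4.60) and the other was not (5.94 and 5.71), without overlap. The difference of -0.37 ± 0.14 (adjusted p = 0.204, and 0.038 with the replicate block) was -0.25 without CTR2 and ONC4, and -0.14 over the 4 channels with undisputed dye.

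Rps12 and Rps10 sit in the head of the small subunit, and Rps10 is a ubiquitination target when ribosomes collide. Rps12 had levels of 6.65, 6.48, 6.83 and 6.93 in CTR1 to CTR4, against 6.35, 6.21, 6.34 and 6.56 for ONC1 to ONC4. For Rps10 they were 6.24, 6.19, 6.56 and 6.63, and 6.06, 5.89, 6.08 and 6.24. In both genes array 4 was high in each label, and ONC4 passed CTR2 only. The differences were -0.36 ± 0.12 for Rps12 and -0.34 ± 0.13 for Rps10 (SE; limma adjusted p = 0.161 and 0.199, and 0.040 and 0.048 with the replicate block). They were -0.50 and -0.46 without CTR2 and ONC4, and -0.36 and -0.34 over the 4 channels with undisputed dye.

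Rps26 lines the channel through which mRNA leaves the small subunit. Its levels were 2.28, 2.27, 2.40 and 2.81 in CTR1 to CTR4, against 2.93, 2.70, 3.03 and 3.14 for ONC1 to ONC4. All ONC channels were above CTR1 to CTR3, and CTR4 lay between ONC2 and ONC1. The difference was 0.51 ± 0.15 (SE, 1.43-fold; limma adjusted p = 0.117, and 0.033 with the replicate block), 0.39 without CTR2 and ONC4, and 0.44 over the 4 channels with undisputed dye. Rps21 had 5.63, 5.53, 5.75 and 5.80 in CTR, against 6.03, 5.92, 6.04 and 6.05 for ONC, without overlap. Its difference of 0.33 ± 0.09 (adjusted p = 0.097, and 0.040 with the replicate block) was 0.27 without CTR2 and ONC4, 0.37 over the 4 channels with undisputed dye, and 0.02 with median scaling and no loess. Rps25, which several viral internal ribosome entry sites require, had 2.69, 2.78, 2.66 and 2.98 in CTR, against 2.98, 3.14, 3.08 and 3.18 for ONC. CTR4 reached ONC1, and the difference was 0.32 ± 0.10 (adjusted p = 0.135, and 0.046 with the replicate block); it was 0.29 without CTR2 and ONC4, and 0.15 over the 4 channels with undisputed dye.

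**Figure D2:**
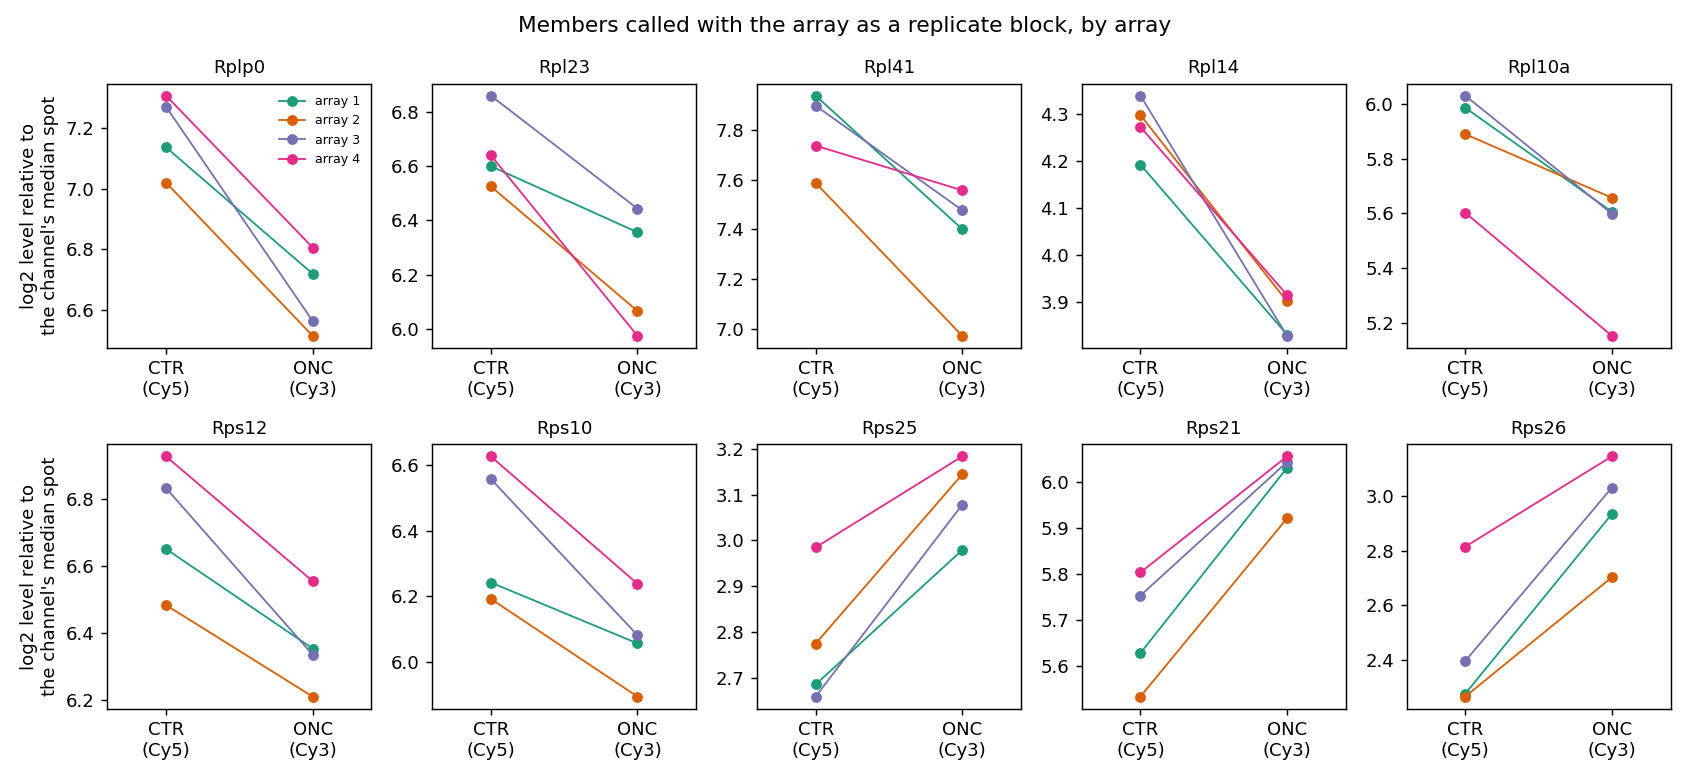
Log2 level of the 10 members called with the array as a replicate block; each line joins the channel labelled CTR (Cy5) and the channel labelled ONC (Cy3) of 1 array, and each panel has its own scale. The 7 lower and the 3 higher members had the same sign on all 4 arrays, which selection by the blocked fit favours.

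None of the remaining 66 tested members was called with or without the block after loess. Rpsa, which also serves as a laminin receptor, had -0.27 ± 0.13 (SE, limma adjusted p = 0.311). Its levels were 3.12, 3.16, 3.47 and 3.45 in CTR, against 3.02, 2.75, 3.13 and 3.22 for ONC, with overlap. Rps6, the substrate of the S6 kinases, had -0.03 ± 0.08, and its levels spanned 5.13 to 5.19 in CTR, against 5.05 to 5.24 in ONC. Its 2 probes had opposite signs on all 4 arrays, at 0.14 and -0.19. Rps18, another common reference gene, had -0.12 ± 0.09. With median scaling and no loess both were called lower, Rps6 at -0.26 and Rps18 at -0.44 (adjusted p = 0.043 and 0.015). Rps4x, an X-linked gene measured by 10 spots of 1 probe, had 0.01 ± 0.08. Rps27a, made as a fusion with ubiquitin, had 0.06 ± 0.09. The levels of these 4 genes overlapped between the labels. Other members without overlap were Rpl11 (-0.23 ± 0.09), Rpl12 (-0.22 ± 0.08) and Rpl28 (-0.19 ± 0.08), lower in ONC, and Rps15a (0.18 ± 0.08), higher in ONC. They were named after their values were seen. Rpl36, a large subunit protein, had 0.26 ± 0.13, with overlap. The 46 tested members outside the rule for named genes ran from -0.27 (Rpl13) to 0.22 (Rpl24), 25 lower and 21 higher in ONC.

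Rpl22 and its paralog Rpl22l1, which can take the same place in the ribosome, were both higher in ONC on all 4 arrays without being called. Rpl22 had levels of 4.005, 3.65, 3.996 and 4.22 in CTR1 to CTR4, against 4.13, 4.11, 4.26 and 4.45 for ONC1 to ONC4. Rpl22l1 had 1.98, 1.91, 2.17 and 2.40 in CTR, against 2.41, 2.29, 2.42 and 2.48 for ONC. CTR4 overlapped with the ONC channels in both genes. The differences were 0.27 ± 0.13 and 0.28 ± 0.12 (SE; limma adjusted p = 0.324 and 0.244), and 0.09 and 0.19 without CTR2 and ONC4. Rpl10l, which replaces the X-linked Rpl10 in male germ cells, had -1.62, -1.47, -1.24 and -0.03 in CTR, against -0.28, -0.90, -0.10 and -0.31 for ONC, below the channel median throughout. Its difference, 0.69 ± 0.33 (adjusted p = 0.311), was the largest among members, and CTR4 exceeded every ONC channel. Rpl39l, a testis paralog of Rpl39, had -2.81, -1.42, -2.95 and -2.45 in CTR, against -1.57, -2.93, -1.72 and -1.31 for ONC. CTR2 was high and ONC2 low, and the difference was 0.52 ± 0.41 (adjusted p = 0.549). Without CTR2 and ONC4 it was 0.54 for Rpl10l and 0.66 for Rpl39l, and over the 4 channels with undisputed dye 0.56 and 0.29. With only CTR4 left out the Rpl10l difference was 1.04. Over all alternatives the Rpl39l difference ran from 0.29 to 0.87. The other paralogs differed less, with Rpl30l1 at 0.06 ± 0.10, Rps27l at 0.05 ± 0.13, Rpl7l1 at 0.00 ± 0.09 and Rpl36al at -0.05 ± 0.14. Over the 7 tested paralogs the median was 0.06.

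Of the 9 members that were not tested, 8 were measured by 1 spot that had an outlier flag, and Rpl3l, a paralog of heart and skeletal muscle, was under 2 times background in a channel. With flagged spots kept, there were differences of -0.27 ± 0.17 (SE) for Rpl4, -0.24 ± 0.14 for Rpl13a, a reference gene in quantitative PCR, -0.09 ± 0.23 for Rpl34, -0.05 ± 0.09 for Rpl7a, 0.05 ± 0.21 for Rpl29, 0.08 ± 0.21 for Rplp1 and 0.14 ± 0.14 for Rplp2. None was called (limma adjusted p of 0.418 or more). The stalk proteins Rplp1 and Rplp2 thus had positive values, each no larger than its SE, beside the negative one of Rplp0.

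The median over the 76 members of the level relative to the gene's own mean was -0.02, -0.10, 0.09 and 0.10 in CTR1 to CTR4, against -0.02, -0.07, 0.04 and 0.06 for ONC1 to ONC4. Both channels of an array had the same sign, low on arrays 1 and 2 and high on arrays 3 and 4, whatever their label. Over all genes the median was 0.03, -0.06, 0.02 and 0.06 in CTR1 to CTR4, against 0.01, -0.06, 0.01 and 0.07 for ONC1 to ONC4, so the whole array shared much of this on arrays 2 and 4. In CTR2, 17 members were above their own mean, and in CTR4 59 were. Markers of microglia, rods, endothelial cells and pericytes, and blood, among others, were also low in CTR2 and high in CTR3 and CTR4. Other lists were not: means of cone, lens and ganglion cell markers were high in CTR2 (0.27, 1.13 and 1.23). Those of bipolar cell markers were low in CTR3 and CTR4 (-0.05 and -0.08), and of pigment epithelium markers in CTR3 (-0.32). For microglia the mean over the 10 tested markers of 10 was 0.08, -0.31, 0.43 and 0.53 in CTR1 to CTR4. It was -0.38, -0.05, -0.33 and 0.03 for ONC1 to ONC4. In CTR2, CTR3 and CTR4 rod markers had -0.11, 0.09 and 0.16. Endothelial and pericyte markers had -0.30, 0.09 and 0.18, and blood markers -0.65, 0.07 and 0.17. For ONC1 to ONC4 rod markers had -0.01, -0.29, -0.02 and 0.03. Endothelial and pericyte markers had 0.10, -0.15, -0.02 and 0.10 there, and blood markers 0.47, -0.29, 0.43 and -0.15. The part of such cells in the members' levels was not tested. The per-array differences between the labels had a similar profile over members on some arrays only. Pearson's r across the 76 genes was 0.87 between arrays 1 and 3, 0.66 between 3 and 4, 0.58 between 1 and 4, and 0.14 to 0.28 for pairs with array 2; genes are not independent replicates. Over all genes the r was 0.63 between arrays 1 and 3, 0.39 between 3 and 4, 0.13 between 1 and 4, and 0.12, 0.33 and 0.39 for array 2 with arrays 1, 3 and 4.

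**Figure D3:**
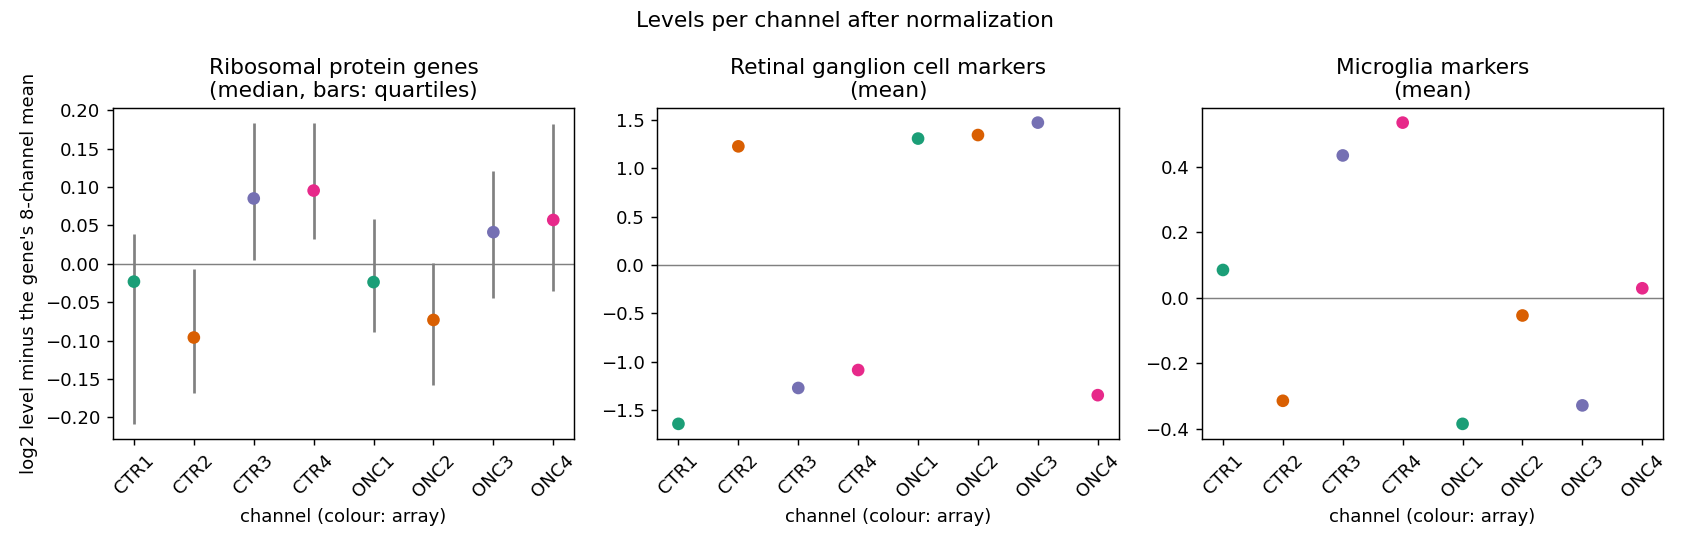
Log2 level minus the gene's 8-channel mean in each channel, coloured by array, for the ribosomal protein genes (median over 76, bars are quartiles), retinal ganglion cell markers (mean over 8) and microglia markers (mean over 10). Ribosomal protein genes lay between -0.10 (CTR2) and 0.10 (CTR4) and went with the array, whereas ganglion cell markers were high in CTR2, ONC1, ONC2 and ONC3.

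The members' ratios moved with the dye normalization. Before it, the median log2 ratio of Cy3 (ONC) over Cy5 (CTR) was -0.74, -0.60, -0.77 and -1.55 for ribosomal protein spots on arrays 1 to 4, and -0.50, -0.32, -0.42 and -1.22 for all spots. The member spots were thus lower than the whole on each array. After loess the member medians were 0.01, 0.00, -0.04 and -0.03. Member spots made up 57 to 59 of the 500 brightest spots on an array, and loess fits its curve along brightness. Fitting the curve without them moved their median fold change to -0.02 and called none. With median scaling and no loess, 31 of 76 members were called, all lower in ONC, beside 19.6% of all genes, of which 927 were lower and 2267 higher. Among the 31 were Rpl41 (-0.95), Rpl23 (-0.83), Rps12 (-0.75), Rps10 (-0.69) and Rpl10a (-0.67), all further from 0 than after loess. A shift of all members by group and a dye bias of bright spots cannot be told apart here.

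**Figure D4:**
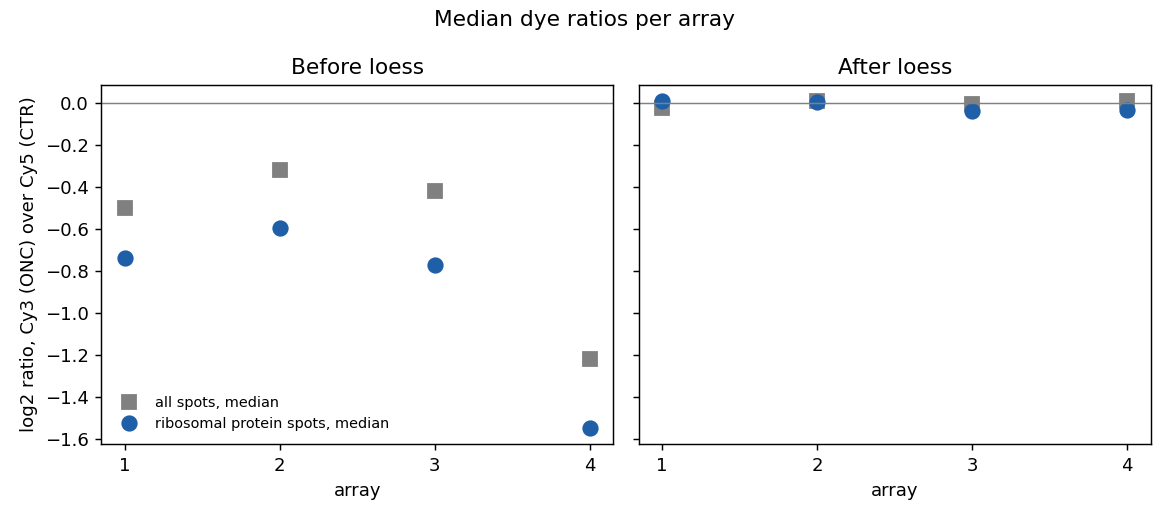
Median log2 ratio of Cy3 (labelled ONC) over Cy5 (labelled CTR) on each array before and after loess, for all spots that passed the filter and for ribosomal protein spots. Before loess the ribosomal protein spots were lower than all spots on each of the 4 arrays (-0.60 to -1.55), and after it both were near 0.

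The relative expression variation (REV) is the coefficient of variation within a label, pooled over a gene's spots and corrected for their number, in percent, and under 10% counted as very stable. The median REV of the 76 members was 16.8% in CTR and 13.8% in ONC, beside 25.1% and 21.7% over all genes. REV depends on the number of spots. Among genes with 1 spot the medians were 22.7% and 18.0% over 33 members, and 27.7% and 24.0% over all such genes; with 3 or more spots they were 13.6% and 10.6% over 14 members, and 13.8% and 12.05% over all. In CTR 11 members and in ONC 22 were very stable (14.5% and 28.9%, beside 6.83% and 13.1% of all genes), and 6 were so in both: Rpl10, Rpl12, Rpl14, Rpl28, Rps2 and Rps16. Rpl10, which completes the large subunit, had 5.30% and 5.44%, and Rps2, at the mRNA entry, 9.75% and 5.72%. Rpl10l had 126% and 46.4%, Rpl39l 118% and 85.0%, and Rpl30, which also binds its own RNA in yeast, 32.5% and 69.9%. The Rpl30 levels were 5.09, 4.99, 4.74 and 5.27 in CTR, against 5.09, 4.78, 4.13 and 5.33 for ONC, lowest on array 3 in both labels. With 1 channel left out, where the correction is larger, the member median ran from 17.6% to 21.4% in CTR, and from 14.4% (without ONC2) to 19.0% (without ONC3) in ONC; 9 members were very stable in ONC without ONC3 and 13 without ONC1, and 6 in CTR without CTR1 or without CTR2. The difference between the labels in REV was not tested. Over all genes the text of the study gives the opposite direction, with fewer very stable genes after ONC.

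**Figure D5:**
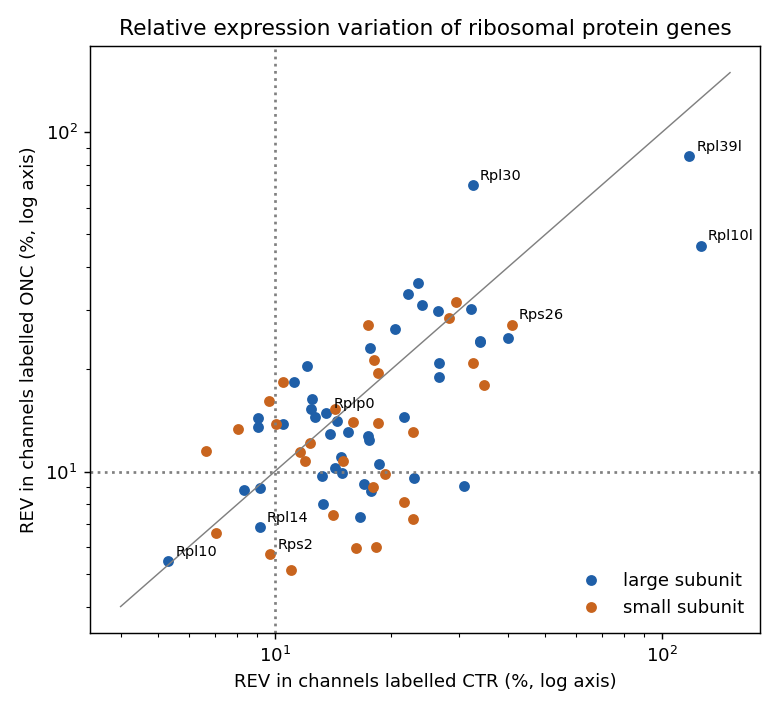
REV (percent, both axes logarithmic) of the 76 ribosomal protein genes in channels labelled CTR and ONC (4 each), with the line of equality and dotted lines at 10%. In ONC the REV was higher in 29 members, beside 6762 of 16307 genes. The count was 50 members (11502 genes) without ONC3 and 44 (11338 genes) without ONC1. It was 31 (8646 genes) without ONC2 and 32 (8296 genes) without ONC4. Leaving out an ONC channel makes the correction in REV larger in ONC only. These counts therefore do not compare with the count over all channels and show no reversal. Rpl10l and Rpl39l had the highest REV in CTR.

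In the 41 members with 2 or more probes, the highest and lowest probe differed by a median of 0.17 in log2 fold change, beside 0.20 over 2052 genes of the array, and in 15 they had opposite signs. Rpl37a had the widest range, with 0.43, 0.20 and -0.11 for its 3 probes, of which the last was below the channel median. The probes of Rpl6 gave -0.44 and -0.08. The gene values were -0.26 ± 0.16 for Rpl6 and 0.17 ± 0.08 for Rpl37a (SE), neither called. Ribosomal protein genes have many processed copies in mammalian genomes, and hybridisation of a probe with such copies was not examined. The share of G and C in the probes had a median of 45% for members and for the whole array, and its Spearman correlation with the fold change across 132 member probes was -0.07.

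Other translation genes had few calls without the block, and their counts with the block, given below, stand beside 7.69% of all genes. None of 3 other ribosome components was called; Gnb2l1, the scaffold Rack1 of the small subunit, had -0.38 ± 0.07 (SE; limma adjusted p = 0.058, and 0.036 with the replicate block). Of 8 elongation factors none was called, and they ran from Eef2, which moves the ribosome along the mRNA (-0.60 ± 0.16, adjusted p = 0.095), to Eef1a2, the neuronal form of the factor that delivers transfer RNA (0.47 ± 0.13, adjusted p = 0.105). With the replicate block, 1 was called higher and 2 lower. Among other TOP mRNAs 11 of 12 were tested and none called, from Nap1l1 (-0.65 ± 0.49) to the nucleolar chaperone Npm1 (0.37 ± 0.09), with a median of 0.00. The Nap1l1 value rested on ONC4, at -0.93 beside 1.37 to 1.64 in the other 7 channels. With the replicate block Npm1 was called higher, and Pabpc1 and Eif3h lower. Of 37 tested initiation factors none was called, from Eif2b1 (-0.42 ± 0.14) to the helicase Eif4a2 (0.42 ± 0.09); with the replicate block 1 was called higher and 4 lower, both of these among them.

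In ribosome biogenesis 1 of 34 tested genes was called, and with the replicate block 2 higher (Tcof1 and Npm1) and 2 lower (Gar1 and Sbds). Tcof1, a nucleolar factor of ribosomal DNA transcription, was higher in ONC by 0.56 ± 0.09 (SE; limma adjusted p = 0.044) on all 4 arrays. The adjusted p was 0.047 without ONC2 and 0.074 to 0.178 without any 1 of the others (the 4 channels labelled CTR, and ONC1, ONC3 and ONC4). Rrn3, which recruits RNA polymerase I, had the largest positive difference of the list, 0.86 ± 0.43 (limma adjusted p = 0.324). Much of the Rrn3 value rested on ONC1, at -1.59 beside -4.07 to -2.89 in the other ONC channels and -4.04 to -3.64 in CTR. Sbds, which frees the new large subunit for use, had the largest negative difference, -0.65 ± 0.12 (limma adjusted p = 0.055). None of 12 tested genes of TOR and TOP mRNA control was called, from Tia1 (-0.37 ± 0.10; adjusted p = 0.116, and 0.039 with the replicate block) to Rheb (0.17 ± 0.09). None of 10 ribosomal S6 kinases was called, from Rps6ka2 (-0.36 ± 0.32) to Rps6ka5 (0.14 ± 0.09), also with the block. For Rps6ka2 CTR4 was highest, at -1.33 beside -2.84 to -1.82 in CTR1 to CTR3. Mitochondrial ribosomal proteins, which serve the organelle's own ribosome, had a median of 0.03 over 68 genes, none called, from Mrpl15 (-0.41 ± 0.11) to Mrps25 (0.31 ± 0.11); with the replicate block Mrpl15 was called lower and Mrps36 higher.

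No marker of the other retinal cells was called. With the replicate block 1 rod, 2 cone, 1 amacrine and 2 Mueller glia markers were called, all lower in ONC. Of all genes, 4.61% were called lower in ONC with the block, and 7.69% in either direction. Rod markers had a median of -0.11 (8 tested), with Nrl highest at 0.16, and cone markers -0.32 (6 tested), from Pde6h (-0.39) to Pde6c (0.07). Bipolar cell markers had 0.20 (6 tested), with Prkca highest at 0.36, and amacrine cell markers -0.02 (7 tested), from Slc6a9 (-0.41) to Tfap2a (0.58). The level of Tfap2a was -0.89 in CTR4, beside 0.09 to 0.455 in CTR1 to CTR3. Mueller glia markers had -0.19 (7 tested), from Slc1a3 (-0.56) to Glul (0.58), and microglia markers -0.38 (10 tested), from C1qb (-0.69) to Cx3cr1 (0.39). Glul was at 2.965 in CTR4, beside 3.97 to 4.25 in CTR1 to CTR3. Lens markers had -0.39 (13 tested), from Cryaa (-0.95) to Crygb (0.10), and all 13 were above their mean in CTR2. Pigment epithelium markers had 0.11 (4 tested), from Rrh (-0.12) to Rpe65 (0.79), and blood markers 0.22 (3 tested), from Alas2 (0.08) to Hba1 (0.38). Endothelial and pericyte markers had 0.01 (6 tested), from Rgs5 (-0.19) to Pecam1 (0.18). Thy1, with 0.61, was the ganglion cell marker with the smallest difference. Rods make up most retinal cells, and their markers were measured in every channel.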

How the data were processed

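Per the labels, 8 retina samples (4 CTR, 4 ONC) were hybridised to 4 2-colour rat arrays; values are deposited intensities, unnormalized, from the Agilent Feature Extraction output (version 11.1.19.1 in the submitters' processing notes; the file headers and the methods name other versions). Outlier flags and the other scanner flags were deposited beside them. The mean foreground less the median local background was used. Control spots, spots with a feature or background non-uniformity or a feature population flag, and spots under 2 times background in any channel were left out (27371 spots, 18599 probes and 16307 genes remained). Loess within each array (limma 3.58.1, R 4.3.3) was followed by centring each channel on its median and averaging spots, then probes, of a gene on the log2 scale. Label effects were tested with lmFit and eBayes, two-sided, with Benjamini-Hochberg adjustment over 16307 genes; the scripts were tested on simulated data.

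Pairing came from the labels, which give channels of an array the same number. Same-numbered channels deviated together from their label means (r = 0.15, 0.55, 0.40 and 0.49 across genes), and the array was used as a replicate block as well; other pairs had -0.51 to 0.17, and CTR1 went with ONC2 (0.17) no less than with ONC1. Each group's 4 retinas were profiled singly according to the methods, and p-values measure the spread between these samples.

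Named were Rplp0, Rps6, Rpl22, Rpsa, Rps18, Rpl13a, Rps4x, Rps27a, every paralog, members called with or without the block, the 8 largest differences each way, the 3 smallest and 3 largest spreads, the 3 with most discordant probes, and from each other list the called genes and both extremes. Some of these are not reported here. Members and lists were chosen with earlier results of these data known. Alternatives were other dye, background and array normalizations, spot filters, probes, tests and channels. Promoters are from RefSeq. Gene symbols are those of the array design.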

Additional observations from a re-analysis of the deposited data

Results flagged for a closer look

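In 4 of 152 groups of 4 channels (76 members, each label) 1 channel lay apart from the other 3 by more than Dixon's critical value for the gap to the nearest channel over the range; chance gives about 1 in 20. Rpl10a had a ratio of 0.884 in ONC, where ONC4 was low (5.15 beside 5.60 to 5.66). Rps23 had 0.883, with ONC2 low at 5.51 beside 5.87 to 5.92. Rps27a had 0.875, with ONC1 high at 5.57 beside 5.34 to 5.37. Rpl28 had 0.87 in CTR, with CTR4 high at 1.96 beside 1.80 to 1.82.

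Of 38 groups of list means, 3 had a channel apart, all in ONC. For retinal ganglion cell markers the ratio was 0.941, with ONC4 at -1.35 beside 1.31 to 1.47. For pigment epithelium markers it was 0.913, with ONC2 at -0.49 beside 0.27 to 0.34. For TOR and TOP mRNA control it was 0.946, with ONC2 at -0.13 beside values within 0.01 of 0.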

How the results depend on the processing

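Over the 22 alternatives (3 of them, on flags and on the loess curve, chosen after seeing the data), 0 members were called in 15, among them all 8 that leave out 1 channel (0 to 0). Members were called with the replicate block (10), median scaling without loess (31), Aquantile after loess (4: Rpl14, Rpl41, Rplp0 and Rps21), spots well above background in all channels (1), the brightest probe of each gene (1), background population flags used too (1), each of these 3 being Rpl14, and without CTR2 and ONC4 (1, Rplp0). The methods' t-test on linear values, here with Benjamini-Hochberg adjustment, which the methods do not use, and without their cut-off on the fold of each gene, called 0 members (17 at an unadjusted p under 0.05; 2682 of all genes). The cause was not tested.

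Over all genes, 81 calls became 1254 with the replicate block, 3194 with median scaling, 412 with Aquantile, 14 with normexp (offset 50), 21 with processed signals, 0 with no filter on dim spots, 123 with spots well above background, 124 with the brightest probe, 0 with the methods' t-test, 0 over the 4 channels with undisputed dye, 415 without CTR2 and ONC4, and 0 to 38 with 1 channel left out, each of the 8 channels moving the count. Fewer samples were fitted in the last 3.

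The members' median fold change moved beyond the spread between channels only with median scaling (-0.29); with 1 channel left out it ran from -0.05 to 0.02. The median REV in CTR was 18.4% with median scaling, 12.2% with Aquantile, 14.0% with normexp and 13.2% with no dim filter. With fewer channels it was 31.6% over the 4 with undisputed dye and 19.2% without CTR2 and ONC4. It was 17.6% to 21.4% with 1 channel left out. In ONC the median was 11.06% with background population flags used too and 14.4% to 19.0% with 1 channel left out. The correction in REV is larger with fewer channels, so values with channels left out do not compare with the others. Over the 4 channels with undisputed dye the CTR median of all genes was 145%. Of the 30 named members tested, 18 kept their sign in every alternative that tested them and 15 were called in none; 21 or 22 alternatives tested each. The block changed no other call among members. Signal over background limited only Rpl3l and 1 Rpl36a probe.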
